A study of Homo sapiens with 14 samples.

Results

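Desmosomes and E-cadherin junctions are the contacts that hold the cells of a squamous epithelium together, and the 10 genes described here encode their core. They were chosen by name and are the desmosomal cadherins DSG2, DSG3, DSC2 and DSC3, the plaque proteins DSP, JUP, PKP1, PKP2 and PKP3, and E-cadherin (CDH1). All 10 were among the 59471 gene names counted, and all 10 passed the filter on low counts in every comparison. RNA-seq of polyA RNA was carried out in SCC23, an established line of head and neck squamous cell carcinoma (HNSCC), in 14 libraries from 2 experiments. KMT2D-KO cells had been transfected with a Cas9-GFP plasmid carrying an sgRNA against KMT2D, a histone methyltransferase that acts mainly at enhancers, and KMT2D-WT cells with the same plasmid carrying an sgRNA against LacZ. The KMT2D-KO lines KO1 and KO2 came from sorted GFP-positive cells, and no cloning of single cells is described for them. Cells were either kept in high-glucose medium (+Glc) or deprived of glucose for 6 h (−Glc). Each glucose condition had 3 KMT2D-WT libraries (1 from experiment 1 and 2 from experiment 2) and 4 KMT2D-KO libraries (1 of each line in each experiment).

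In a desmosome, the desmogleins (DSG) and desmocollins (DSC) of neighbouring cells bind each other outside the cell. Inside, plakoglobin (JUP) and the plakophilins (PKP) link their tails to desmoplakin (DSP), which anchors the keratin filaments. E-cadherin builds the adherens junction beside it and is tied to actin through catenins, with which JUP can also pair. In stratified epithelia DSG3, DSC3 and PKP1 belong to the keratinocyte desmosome, whereas DSG2, DSC2 and PKP2 are found in simple epithelia and the heart as well. Loss of E-cadherin and of desmosomal adhesion is a known feature of invasive carcinoma cells.

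Total counts ranged from 15669154 to 62968057 per library. For the KMT2D-KO cells the study reports KMT2D mutations by sequencing and loss of the protein by western blot. Only RNA is measured here. KMT2D itself does not separate the genotypes with glucose, where its level was 265.5 to 279.3 CPM (counts relative to library size, scaled by TMM) in KMT2D-WT cells, 182 and 184 in KO1 and 323 and 373 in KO2, and its log2 fold change over both lines was -0.02 (SE 0.25, adjusted p = 0.967 from edgeR, by its quasi-likelihood test and the Benjamini-Hochberg method over all genes). Without glucose its level was 231 to 239 CPM in KMT2D-WT cells, 19.9 in the KO1 library of experiment 1, and 145 to 190.2 in the other 3 KMT2D-KO libraries. Over 96 genes other than the members that differed by at least 3 on the log2 scale between KO1 and KO2 with glucose, the 2 KMT2D-KO libraries of experiment 2 without glucose, labelled KO1 and KO2, both lay with KO2, so the lines were not compared with each other without glucose. These 2 libraries also differed from each other by a mean chi-square of 1.78 per gene, where counting noise alone gives 1. The 2 KMT2D-WT libraries of the same experiment and condition differed by 1.71. The other pairs of a KO1 and a KO2 library gave 25.9 to 83. The KMT2D-WT pair of experiment 2 with glucose gave 28.7. Both mates of each read pair were counted in the libraries of experiment 2 with glucose. The glucose-deprived libraries of experiment 2 are therefore close to repeats of each other, and values with each such pair summed are given beside the results. The epithelial markers EPCAM, KRT8, KRT18, KRT5, KRT14 and SFN were present in all libraries, with EPCAM at 231 to 426 CPM and KRT8 at 1712 to 3501 CPM. Of 8 markers of leukocytes, endothelium, fibroblasts and melanocytes, the sum was 3.88 to 8.64 CPM in KMT2D-WT and 7.57 to 23.3 CPM in KMT2D-KO libraries, with PTPRC at 0 in all but 1 library. COL1A1 made up most of it, and its part in the results was not tested.

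The 4 desmosomal cadherin genes lie in the desmocollin and desmoglein cluster on chromosome 18 (GRCh38), where 7 genes span 560 kb in the order DSC3, DSC2, DSC1, DSG1, DSG4, DSG3 and DSG2. DSG3 and DSG2 are separated by 19.5 kb, and DSC3 and DSC2 by 16.0 kb. Desmoplakin lies on chromosome 6, PKP1 on 1, PKP2 on 12, PKP3 on 11, CDH1 on 16 and JUP on 17. CDH1 and DSG2 shared exonic bases with a gene on the opposite strand, over 5.69% and 3.07% of their exonic length, and the counting took no account of strand. RefSeq (GRCh38.p14) promoter windows of 250 bases before the transcription start were matched for 7 of the 10 members. Those of DSG3, DSC3 and DSG2, the cadherins whose RNA followed CDH1 most closely, and of PKP1, whose RNA changed most, are shown 5′ to 3′ on the strand of the gene as far as the first base of the gene in the annotation used for counting. Capitals mark CACCTG (the E-box read by SNAI and ZEB repressors) and GGGCGG (the Sp1 site), on either strand.
DSG3, chr18:31447491-31447740, plus strand: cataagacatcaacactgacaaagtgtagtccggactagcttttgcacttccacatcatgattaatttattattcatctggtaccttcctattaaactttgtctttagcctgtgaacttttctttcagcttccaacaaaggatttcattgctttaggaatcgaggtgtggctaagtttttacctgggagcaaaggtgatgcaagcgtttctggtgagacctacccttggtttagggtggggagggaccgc
DSC3, chr18:31042816-31042992, minus strand: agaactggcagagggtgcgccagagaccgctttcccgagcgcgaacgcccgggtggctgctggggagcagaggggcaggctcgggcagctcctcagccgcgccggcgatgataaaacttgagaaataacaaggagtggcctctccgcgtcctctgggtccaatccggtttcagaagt
DSG2, chr18:31497927-31498176, plus strand: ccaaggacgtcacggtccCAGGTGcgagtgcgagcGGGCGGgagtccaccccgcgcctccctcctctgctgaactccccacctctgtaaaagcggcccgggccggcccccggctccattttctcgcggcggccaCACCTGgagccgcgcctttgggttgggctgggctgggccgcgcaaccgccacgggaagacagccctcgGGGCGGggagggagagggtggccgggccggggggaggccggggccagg
PKP1, chr1:201283256-201283451, plus strand: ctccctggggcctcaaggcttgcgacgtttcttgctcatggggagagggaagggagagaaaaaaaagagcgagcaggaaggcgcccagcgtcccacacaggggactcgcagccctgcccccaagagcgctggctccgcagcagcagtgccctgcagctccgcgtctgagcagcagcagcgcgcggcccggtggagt
CACCTG occurred in 17.5% of all 35116 promoter windows of this length, and GGGCGG in 42.6%. The window of DSG2 held 2 matches to each, and its GC content was 75.2%, whereas the windows of DSG3 (42.8% GC) and DSC3 (60.4% GC) held none. The PKP1 window held 1 GGGCGG, which begins 14 bases before the start and lies past the part shown. In the DSP window there were 2 CACCTG and 7 GGGCGG matches. Over the 7 members, some with more than 1 start, CACCTG was found for DSG2, DSP, DSC2 and JUP, and GGGCGG for these and PKP1. TGANTCA (AP-1, in 6.57% of all windows) and AACNGGTT (grainyhead, in 1.49%) had no match in the windows of these 7 members.

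The members were expressed at very different levels. In KMT2D-WT cells with glucose, per kilobase of exonic length, DSP stood at 55.01 ± 4.67 CPM per kb (SD, n = 3), PKP3 at 45.7 ± 15.1 and JUP at 40.5 ± 11.4, and these 3 overlapped between libraries. DSG2 at 22.3 ± 3.55 and PKP2 at 18.9 ± 3.63 came next, overlapping each other but below the other 3 in every library. CDH1 followed at 9.13 ± 0.694, apart from its neighbours in that order. DSG3 (2.12 ± 0.671), DSC2 (1.496 ± 0.307), DSC3 (1.44 ± 0.205) and PKP1 (1.11 ± 0.265) formed the low end, where DSG3 overlapped DSC2 and DSC3, and PKP1 overlapped DSC2 and DSC3. DSG2 was thus the main desmoglein of these cells, and DSG1 and DSG4 had no count in any KMT2D-WT library.

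**Figure D1:**
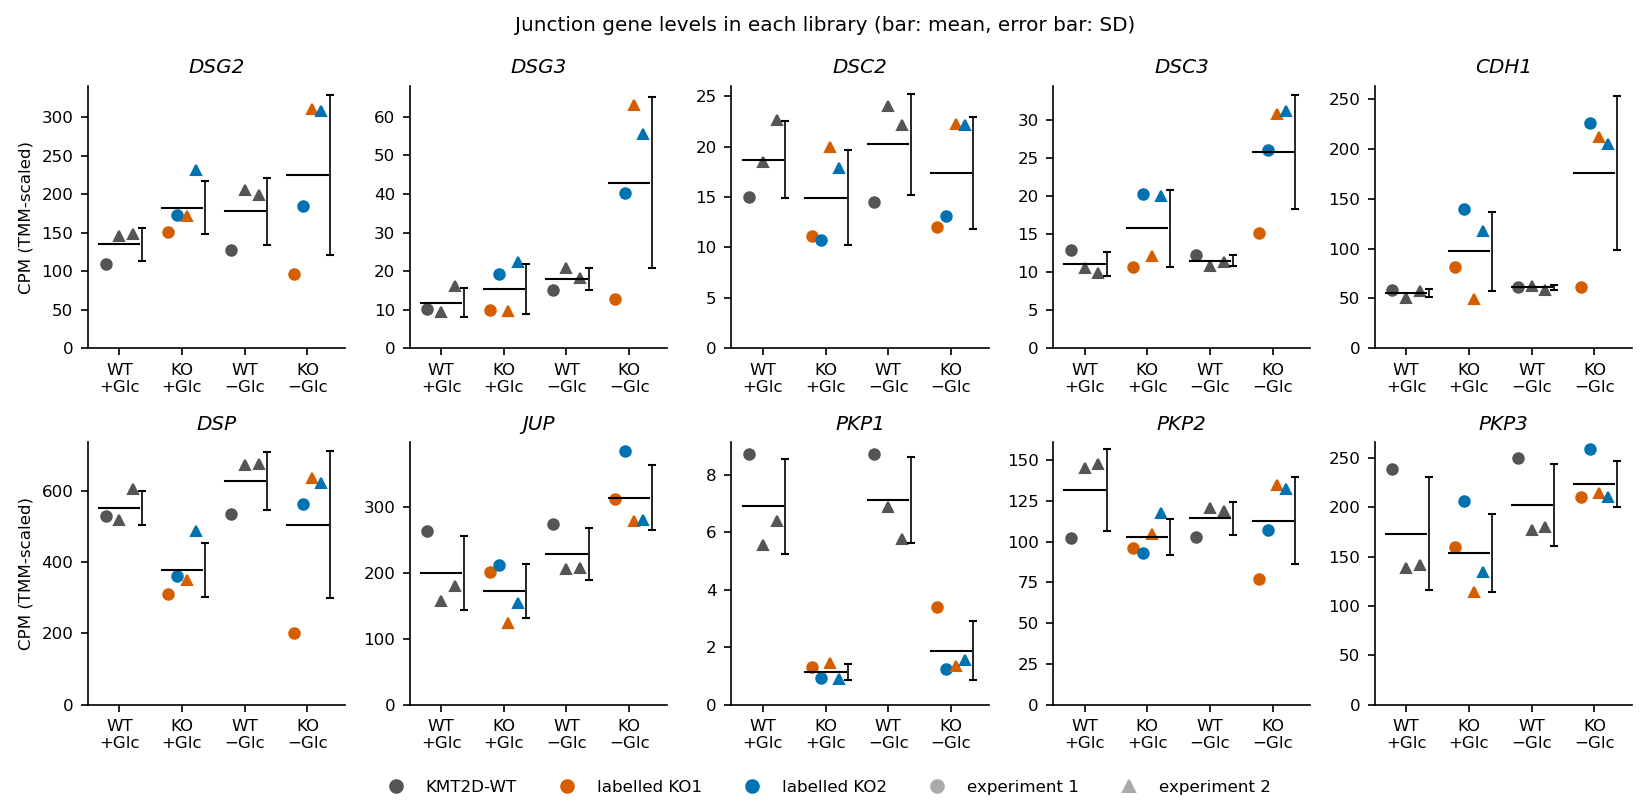
Levels of the 10 junction genes in CPM (TMM-scaled, linear axis from 0) in each of the 14 libraries, by genotype and glucose condition. Color gives the labelled line and shape the experiment, horizontal bars are group means and error bars SD. PKP1 is lower in every KMT2D-KO library than in every KMT2D-WT library of the same condition, and the KO1 library of experiment 1 without glucose lies at 61.1 CPM for CDH1 against 205 to 226 in the other 3 KMT2D-KO libraries.

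Whether KMT2D loss changes these genes in cells kept in glucose was examined first. PKP1 fell to 0.167 of its KMT2D-WT level, DSP and JUP fell by smaller amounts, and DSG2 rose. Of the 10 members, KMT2D-KO cells had 3 lower and 1 higher (edgeR, Benjamini-Hochberg adjusted p under 0.05 over all genes), where 11.7% of the 20423 genes tested were called lower and 13% higher. The median log2 fold change was -0.25 over the members and 0.02 over all genes tested. In bulk RNA, fewer cells that express a gene and less RNA per cell cannot be told apart. The 2 experiments are described as independent. Whether the libraries of 1 experiment came from separate cultures is not given in the sources used here, and p-values measure the spread between these libraries. All KMT2D-KO libraries lay below all KMT2D-WT libraries for PKP1 and DSP (10.4% of all genes) and above them for DSG2 (9.66% of all genes).

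PKP1, the plakophilin of the suprabasal keratinocyte desmosome, had the largest change. With glucose its level was 8.73 CPM in the KMT2D-WT library of experiment 1 and 5.56 and 6.38 CPM in those of experiment 2. In KMT2D-KO cells it was 1.29 (KO1) and 0.920 CPM (KO2) in experiment 1, and 1.44 (KO1) and 0.884 CPM (KO2) in experiment 2. Every KMT2D-KO library therefore lay below every KMT2D-WT library, in both lines and both experiments. The log2 fold change was -2.58 (SE 0.25, adjusted p = 0.000193 from edgeR). These levels rest on 19 to 95 counts in the KMT2D-KO libraries and 207 to 378 in the KMT2D-WT libraries. Leaving out each library in turn gave -2.86 to -2.36, and the call held each time. In these Results, values for a line alone come from a fit of all libraries with glucose that kept KMT2D-WT, KO1 and KO2 apart. KO1 alone (-2.28, SE 0.24) and KO2 alone (-2.91, SE 0.25) were both called, and the difference between the lines was not (0.64, SE 0.29, adjusted p = 0.177 from edgeR).

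DSP, which ties the plaque to keratin, fell in both lines. Its level with glucose was 531 CPM in the KMT2D-WT library of experiment 1 and 521 and 607 CPM in those of experiment 2. It was 312 (KO1) and 362 CPM (KO2) in experiment 1, and 351 (KO1) and 488 CPM (KO2) in experiment 2. The KMT2D-KO libraries were all below the KMT2D-WT libraries, with the KO2 library of experiment 2 nearest to them. The log2 fold change was -0.51 (SE 0.12, adjusted p = 0.0161 from edgeR), and KO1 fell by more than KO2 (difference -0.36, SE 0.10, adjusted p = 0.0144 from edgeR). The DSP call was lost without the KMT2D-WT library of experiment 1 (-0.44, adjusted p = 0.165 from edgeR) and without the second of experiment 2 (-0.48, adjusted p = 0.0732 from edgeR).

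Among the other plaque genes the changes were small. JUP, the armadillo protein shared with adherens junctions, was 264, 156 and 179.9 CPM in KMT2D-WT cells with glucose, and in KMT2D-KO cells 201 and 211 CPM in experiment 1 and 124 and 154 CPM in experiment 2. The groups overlapped across experiments, but within each experiment both KMT2D-KO libraries lay below the KMT2D-WT libraries. Its log2 fold change was -0.30 (SE 0.09, adjusted p = 0.0453 from edgeR), close to the threshold, and the call was lost on leaving out 6 of the 7 libraries in turn (up to adjusted p = 0.229, all but the KO2 library of experiment 2). PKP2 (-0.28, adjusted p = 0.0524 from edgeR) and PKP3 (-0.25, adjusted p = 0.132) did not pass the threshold over both lines. In KO1 alone PKP2 (-0.33, SE 0.09) and PKP3 (-0.42, SE 0.08) were called lower, and in KO2 alone PKP2 was (-0.25, SE 0.09) and PKP3 was not (-0.11, adjusted p = 0.337 from edgeR).

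DSG2, the most abundant desmosomal cadherin, was higher in both lines. With glucose it was 110, 146 and 148 CPM in KMT2D-WT cells, 151.5 (KO1) and 174 CPM (KO2) in experiment 1, and 172 (KO1) and 231.5 CPM (KO2) in experiment 2. No KMT2D-KO library fell into the range of the KMT2D-WT libraries, although the margin was narrow for KO1 of experiment 1. The log2 fold change was 0.50 (SE 0.11, adjusted p = 0.0115 from edgeR), and without the KMT2D-WT library of experiment 1 it was 0.44 (adjusted p = 0.126 from edgeR). DSC2 did not pass the threshold (-0.24, SE 0.13, adjusted p = 0.213 from edgeR), with 15.0 to 22.7 CPM in KMT2D-WT and 10.7 to 19.99 CPM in KMT2D-KO cells.

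For CDH1, DSG3 and DSC3 the lines differed. CDH1 with glucose was 58.4, 50.9 and 57.9 CPM in KMT2D-WT cells, 82.0 and 49.9 CPM in KO1 and 140 and 117 CPM in KO2 (experiments 1 and 2). KO2 thus stood above all KMT2D-WT libraries in both experiments, whereas KO1 was above them in experiment 1 and just below them in experiment 2. KO2 alone gave a CDH1 log2 fold change of 1.15 (SE 0.11, adjusted p = 2.18e-07 from edgeR) and KO1 alone 0.13 (SE 0.11, adjusted p = 0.421). The test of the difference between the lines gave -1.02 (SE 0.12, adjusted p = 1.81e-05 from edgeR), and over both lines CDH1 was not called (0.74, SE 0.29, adjusted p = 0.0951). Without the KO1 library of experiment 2 CDH1 was called over both lines (1.03, adjusted p = 0.00512 from edgeR).

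DSG3, the keratinocyte desmoglein, was 10.1, 9.28 and 16.2 CPM in KMT2D-WT cells with glucose, 9.83 and 9.76 CPM in KO1 and 19.3 and 22.3 CPM in KO2. DSC3, the desmocollin of the same layers, was 12.9, 10.5 and 9.88 CPM in KMT2D-WT cells, 10.7 and 12.1 CPM in KO1 and 20.2 and 19.96 CPM in KO2. In both genes the KO2 libraries stood above all KMT2D-WT libraries and the KO1 libraries lay within their range. KO2 alone gave 0.85 for DSG3 (SE 0.18, adjusted p = 0.000975 from edgeR) and 0.87 for DSC3 (SE 0.13, adjusted p = 4.56e-05). KO1 alone gave -0.26 for DSG3 (adjusted p = 0.348) and 0.06 for DSC3 (adjusted p = 0.799). The lines differed by -1.11 in DSG3 (SE 0.20, adjusted p = 0.000981) and by -0.81 in DSC3 (SE 0.15, adjusted p = 0.000992).

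Counted over the members, 6 were lower in KO1 than in KO2 (DSC3, DSG2, DSG3, DSP, PKP3 and CDH1) and none was higher, against 7.4% and 7.32% of all 21850 genes tested by edgeR. For KO1 against KMT2D-WT, 5 members were lower (15.9% of all genes) and 1 was higher (16.1%). For KO2, 3 were lower (16.6% of all genes) and 4 were higher (18%). PKP1, DSP and PKP2 were called lower and DSG2 higher in each line. The comparisons of the 2 lines with KMT2D-WT share the KMT2D-WT libraries. Between the lines, the calls of CDH1, DSG3 and DSC3 held on leaving out each library, and those of DSG2, DSP and PKP3 each ended on leaving out any 1 of 3 of the 4 KMT2D-KO libraries (adjusted p up to 0.421 for DSP from edgeR).

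**Figure D2:**
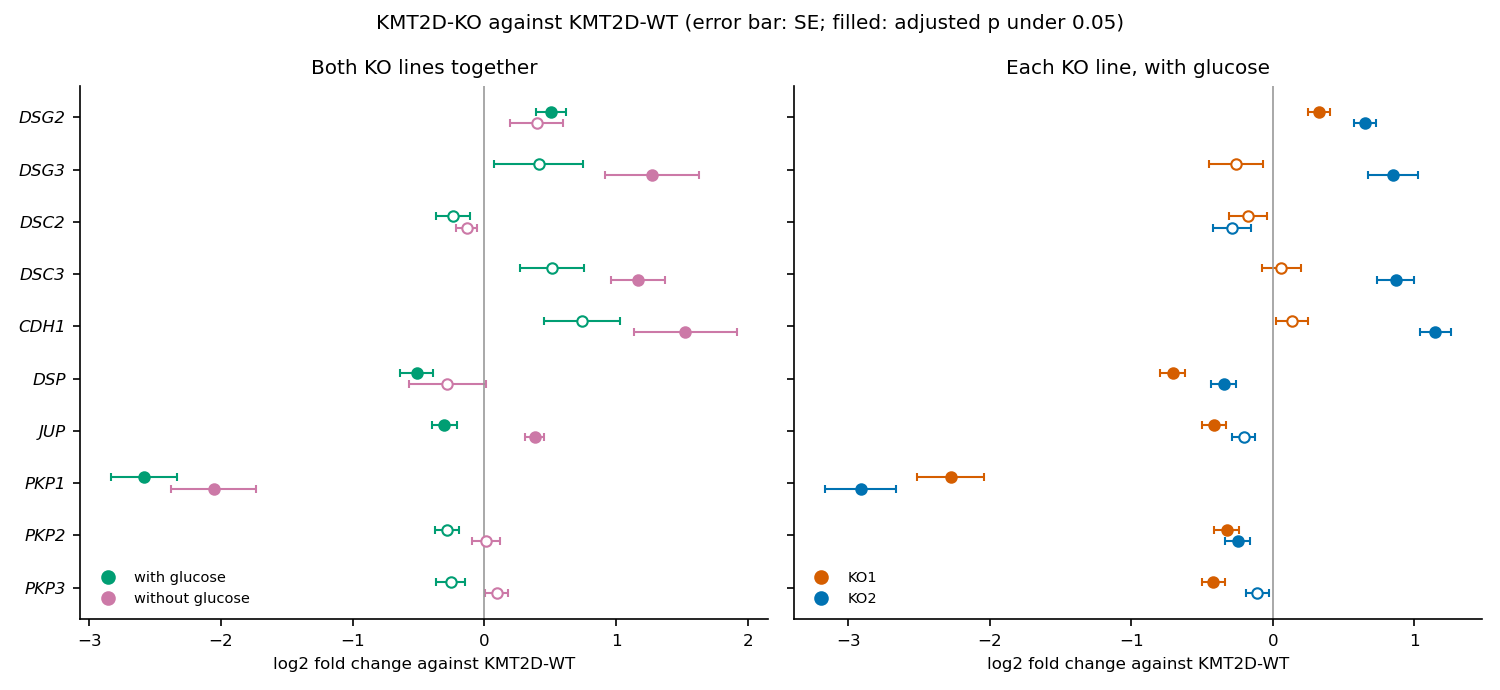
Log2 fold changes of the 10 junction genes in KMT2D-KO against KMT2D-WT cells, with SE as error bars, for both lines together with and without glucose (left) and for each line with glucose (right). Filled points passed an adjusted p under 0.05 in edgeR's quasi-likelihood test. PKP1 is at -2.58 with and -2.06 without glucose, CDH1 is at 1.15 in KO2 and 0.13 in KO1, and JUP is at -0.30 with and 0.38 without glucose.

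Without glucose, PKP1 was again lower over the KMT2D-KO libraries, and CDH1, DSG3, DSC3 and JUP were higher. Only the KO1 library of experiment 1 lay with KO1 over the genes that separate the lines, and the other 3 KMT2D-KO libraries lay with KO2. CDH1 and DSG3 were above the KMT2D-WT range only in the libraries that lay with KO2. DSC3 and JUP were above it in the KO1 library of experiment 1 as well. The part of line in the higher CDH1 and DSG3 was not tested. By edgeR's quasi-likelihood test 1 member was lower and 4 were higher, where 24.9% of the 16782 genes tested were called lower and 25.9% higher, so the share of members called was close to that of all genes. Under library size scaling 2 members were lower and 2 were higher, with DSC2 gained (-0.39, adjusted p = 0.00698 from edgeR) and DSG3 and JUP lost. With the close pairs of experiment 2 summed, none of the 10 members was called by edgeR (3 had an unadjusted p under 0.05), and 2785 in place of 8521 of all genes were. The log2 fold changes below moved little under that setting, and it is their adjusted p-values that depend on counting these libraries as separate.

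PKP1 without glucose was 8.70, 6.87 and 5.75 CPM in KMT2D-WT cells, 3.38 CPM in the KO1 library of experiment 1, and 1.23, 1.33 and 1.55 CPM in the other KMT2D-KO libraries. All KMT2D-KO libraries were below all KMT2D-WT libraries, as in 18.9% of all genes, and the KO1 library of experiment 1 stood between the groups. The log2 fold change was -2.06 (SE 0.32, adjusted p = 0.00213 from edgeR), and -2.01 with the close pairs summed (adjusted p = 0.0513 from edgeR).

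CDH1 without glucose was 61.8, 62.7 and 58.6 CPM in KMT2D-WT cells and 61.1 CPM in the KO1 library of experiment 1. In the other 3 KMT2D-KO libraries it was 226, 212 and 205 CPM, all above the KMT2D-WT libraries. The log2 fold change was 1.53 (SE 0.39, adjusted p = 0.016 from edgeR), 1.77 without the KO1 library of experiment 1 and 1.45 with the close pairs summed (adjusted p = 0.139 from edgeR). Its call was also lost without any 1 of the 3 KMT2D-WT libraries or the KMT2D-KO library labelled KO1 of experiment 2 (adjusted p of 0.0504 to 0.0641 from edgeR).

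DSG3 without glucose was 15.1, 20.7 and 18.3 CPM in KMT2D-WT cells, 12.8 CPM in the KO1 library of experiment 1, and 40.3, 63.1 and 55.6 CPM in the other KMT2D-KO libraries. DSC3 was 12.2, 10.8 and 11.4 CPM in KMT2D-WT cells, 15.1 CPM in the KO1 library of experiment 1, and 26.0, 30.8 and 31.2 CPM in the others. DSC3 and JUP were above the KMT2D-WT range in every KMT2D-KO library (16.3% of all genes), and DSG3 in 3 of 4. The log2 fold change was 1.27 for DSG3 (SE 0.36, adjusted p = 0.0224 from edgeR; 1.15 and 0.177 with the close pairs summed). For DSC3 it was 1.17 (SE 0.21, adjusted p = 0.0034 from edgeR; 1.06 and 0.0718 with the close pairs summed). Leaving out single libraries ended the call in 5 of 7 cases for DSG3 (all 3 KMT2D-WT libraries and both KMT2D-KO libraries of experiment 2, adjusted p of 0.0518 to 0.0893 from edgeR) and in none for DSC3.

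JUP without glucose was 275, 206 and 207 CPM in KMT2D-WT cells, and 311.5, 385, 279 and 280.1 CPM in KMT2D-KO cells. It was higher in KMT2D-KO libraries in both experiments. Its log2 fold change was 0.38 (SE 0.07, adjusted p = 0.00445 from edgeR) under TMM, whose factors were 0.863 to 0.893 in these KMT2D-KO libraries and 1.03 to 1.09 in the KMT2D-WT libraries. Scaling by library size moved the median of all genes from 0.003 to -0.25 and JUP to 0.13 (adjusted p = 0.211 from edgeR), which is still above that median. With the close pairs summed JUP was 0.38 (adjusted p = 0.109 from edgeR).

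DSP, DSG2, DSC2, PKP2 and PKP3 did not pass the threshold without glucose. DSP was 201.5 CPM in the KO1 library of experiment 1 and 563 to 639 CPM in the other KMT2D-KO libraries, against 536 to 676 CPM in KMT2D-WT cells (log2 fold change -0.28, SE 0.29, adjusted p = 0.453 from edgeR). DSG2 was 96.1 CPM in that library and 185 to 310.2 CPM in the other 3, against 128 to 206 CPM (0.40, SE 0.20, adjusted p = 0.139 from edgeR). For both genes that 1 library set most of the spread. PKP2 (0.01, SE 0.11) and PKP3 (0.09, SE 0.09) had values near 0, and DSC2 was at -0.14 (SE 0.08).

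Whether KMT2D loss acted differently with and without glucose was tested by an interaction term over all 14 libraries. JUP was the only member called (0.71 on the log2 scale, SE 0.14, adjusted p = 0.0084 from edgeR), where 6.54% of 18678 genes were called lower and 4.73% higher. For JUP the KMT2D-KO effect was negative with glucose and positive without, and the call held on leaving out each library in turn (0.64 to 0.80) and under library-size scaling (0.49, adjusted p = 0.0193 from edgeR). With the close pairs summed it was 0.70 (adjusted p = 0.0838 from edgeR). For the other members the difference was not called, with CDH1 at 0.81 (SE 0.53, adjusted p = 0.355 from edgeR), DSG3 at 0.89 (SE 0.55), DSC3 at 0.68 (SE 0.36), PKP1 at 0.54 (SE 0.42) and DSP at 0.26 (SE 0.36). Without the KO1 library of experiment 1 in −Glc, 5 members were called. The KMT2D-KO libraries then left in −Glc all lay with KO2, whereas both lines remained in +Glc. Line and glucose therefore cannot be told apart in that count. The number of all genes called also changes on leaving out libraries, as given in the last section.

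The effect of glucose deprivation itself was tested in the 6 libraries of experiment 1, paired by line, since in experiment 2 both mates of each read pair were counted only in the libraries with glucose. None of the 10 members was called by edgeR, where 0.622% of 16066 genes were called lower and 0.479% higher, and none by DESeq2. Unadjusted p-values under 0.05 were found for DSG3 (log2 change 0.66, SE 0.21, adjusted p = 0.132 from edgeR) and JUP (0.50, SE 0.18, adjusted p = 0.166 from edgeR). Each line had 1 library per condition in this test. The other 8 members were between -0.14 and 0.52.

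Ratios of related genes within a library do not depend on the scaling of libraries, and they are given as a description. The ratio of DSG3 to DSG2, in CPM per kb, was 0.069 to 0.118 in KMT2D-WT and 0.062 to 0.121 in KMT2D-KO cells with glucose, and 0.0997 to 0.128 against 0.144 to 0.236 without. DSC3 relative to DSC2 was 0.708 to 1.39 in KMT2D-WT and 0.983 to 3.07 in KMT2D-KO cells with glucose, and 0.731 to 1.37 against 2.04 to 3.22 without. The 2 ratios were thus above the KMT2D-WT range in all KMT2D-KO libraries without glucose, that of the KO1 library of experiment 1 included. PKP1 relative to PKP2 was 0.043 to 0.096 in KMT2D-WT and 0.0084 to 0.015 in KMT2D-KO cells with glucose. PKP3 relative to PKP2 overlapped between the genotypes in both conditions. E-cadherin relative to P-cadherin (CDH3) was 0.151 to 0.201 in KMT2D-WT cells with glucose, 0.201 and 0.181 in KO1 and 0.311 and 0.349 in KO2. Without glucose it was 0.164 to 0.212 in KMT2D-WT cells, 0.117 in the KO1 library of experiment 1, below them, and 0.376 to 0.416 in the other 3 KMT2D-KO libraries, above them.

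**Figure D3:**
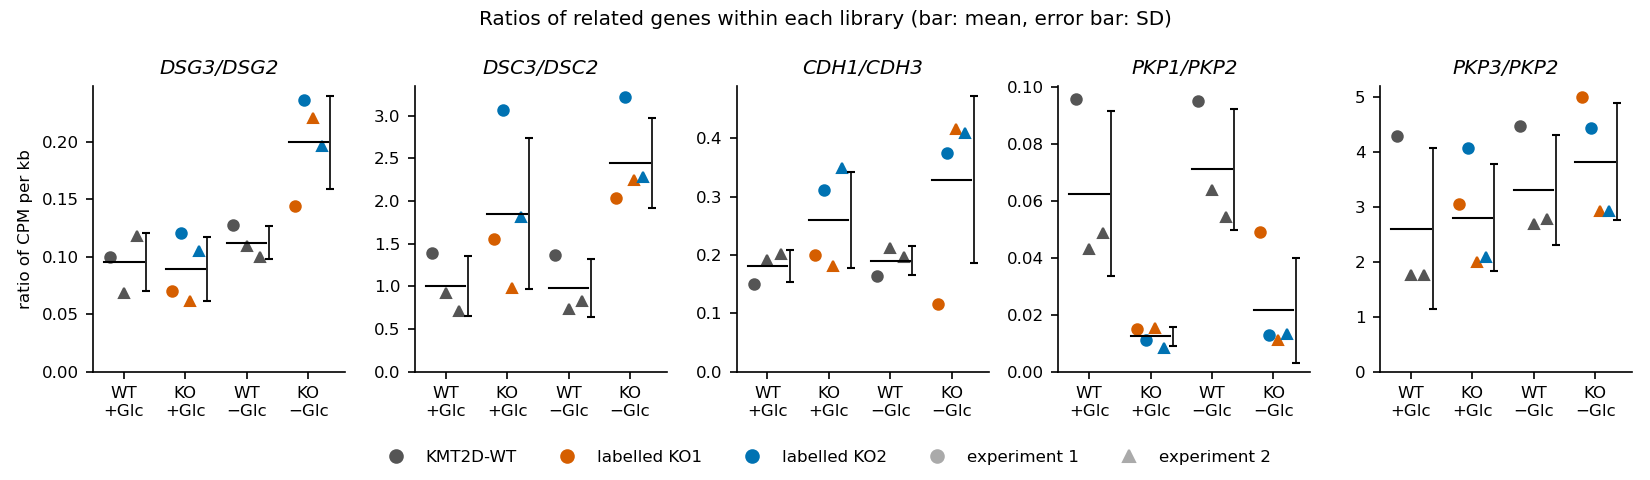
Ratios of CPM per kb of exonic length between related junction genes within each of the 14 libraries, by genotype and glucose condition (linear axes from 0). Color gives the labelled line and shape the experiment, horizontal bars are group means and error bars SD. PKP1/PKP2 is at most 0.015 in KMT2D-KO cells with glucose and at least 0.043 in KMT2D-WT cells, and DSC3/DSC2 is above 2 in all 4 KMT2D-KO libraries without glucose.

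After the mean of each experiment and glucose condition was removed, the most alike members were sought across the 14 libraries. Genotype and line were not removed, so their differences given above enter these values. DSG3 (r = 0.966), DSC3 (0.934) and DSG2 (0.926) followed CDH1, DSP followed PKP2 (0.812), JUP followed PKP3 (0.759), and PKP1 was most like DSC2 (0.70) and least like DSG2 (-0.842). The libraries share experiments and lines and 2 pairs are close to repeats, so these values describe the libraries and carry no p. Among 14268 genes, those most like CDH1 by the same measure included RNF144B (0.99), TNFRSF21 (0.983), MTND6P4 (0.982) and PTPRJ (0.98). MTND6P4 is a pseudogene of a mitochondrial gene, whose reads the counting could have split between copies.

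Other junction genes were counted in lists written from general knowledge, with earlier results of these data known. Over all genes tested, 11.7% were called lower and 13% higher with glucose, and 24.9% and 25.9% without. These shares apply to every list below. Without glucose, all KMT2D-KO libraries but the KO1 library of experiment 1 lay with KO2. The part of line in the changes of these lists without glucose was not tested. Of the 8 other desmosome genes, 5 were tested with glucose, 2 were lower and 1 was higher in KMT2D-KO cells by edgeR's quasi-likelihood test. PPL and EVPL, the periplakin and envoplakin that join DSP in keratinocyte plaques, fell with log2 fold changes of -1.39 (SE 0.12, adjusted p = 0.000123) and -0.52 (SE 0.09, adjusted p = 0.0031). PPL was 177 to 222 CPM in KMT2D-WT and 63.1 to 93.8 CPM in KMT2D-KO cells, without overlap. With glucose, all KMT2D-KO libraries lay below all KMT2D-WT libraries in 10.4% of all genes. DSG1 had no count in any KMT2D-WT library and 0.145 to 0.629 CPM in KMT2D-KO cells with glucose, a trace level for which no fold is given. Without glucose PPL (-0.95) and EVPL (-0.93) were called lower and PERP, a desmosomal membrane protein, higher (0.34, adjusted p = 0.0177 from edgeR). EVPL was still called with the close pairs summed (adjusted p = 0.0301 from edgeR), and PPL (0.142) and PERP (0.172) were not.

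Among 10 adherens junction partners 2 were lower and none was higher with glucose. CTNNA1, the alpha-catenin that links the complex to actin, fell (-0.53, SE 0.08, adjusted p = 0.00212 from edgeR), as did CTNNBIP1, an inhibitor of beta-catenin (-0.30, adjusted p = 0.0446). Without glucose 4 were lower, among them AFDN (-0.79, adjusted p = 0.0126 from edgeR) and NECTIN4 (-0.57, adjusted p = 0.0414), and P-cadherin (CDH3) was higher (0.67, adjusted p = 0.00023). CDH3 was still called with the close pairs summed (adjusted p = 0.0309 from edgeR), and AFDN (0.107) and NECTIN4 (0.211) were not. P-cadherin RNA was 264 to 386 CPM in KMT2D-WT cells with glucose.

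Tight junction genes moved in both directions. With glucose 5 of 10 were lower and 2 were higher by edgeR (11.7% and 13% of all genes). Without glucose 2 of 9 were lower and 3 were higher, close to the shares of all genes (24.9% and 25.9%). CLDN1, a claudin of the epithelial barrier, rose from 14.7 to 23.4 CPM in KMT2D-WT to 36.3 to 149.7 CPM in KMT2D-KO cells with glucose (log2 fold change 2.06, adjusted p = 0.00312) and from 18.7 to 38.2 to 56.8 to 377 CPM without (3.13, adjusted p = 0.00121). The scaffold CGN fell in both conditions (-0.83 and -1.08, adjusted p = 0.0037 and 0.00177 from edgeR). MARVELD2 (tricellulin) was lower with glucose (-0.32, adjusted p = 0.0304 from edgeR) and without (-0.85, adjusted p = 0.000711). With the close pairs summed CLDN1 (adjusted p = 0.0388 from edgeR), CGN (0.0439) and MARVELD2 (0.042) were still called without glucose.

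Of the gap junction genes tested, 4 of 5, 1 was lower and 2 were higher in each condition. GJA1 (connexin 43) was 0 to 0.385 CPM in KMT2D-WT and 8.47 to 26.6 CPM in KMT2D-KO libraries over both conditions. GJB2 (connexin 26) was 0.091 to 0.473 CPM in KMT2D-WT and 0.841 to 2.35 CPM in KMT2D-KO libraries. GJB5 fell (-0.93 with glucose, adjusted p = 0.0039, and -0.37 without, adjusted p = 0.00321 from edgeR). Of the 5 other cadherins 2 were tested, and CDH4 (R-cadherin) fell with glucose (-2.96, adjusted p = 7.0e-05 from edgeR) and without (-2.01, adjusted p = 0.00254), and CDH13 fell with glucose (-0.37, adjusted p = 0.0485). CDH13 was called in KO1 alone (-0.57, adjusted p = 2.14e-05 from edgeR) and not in KO2 alone (-0.20, adjusted p = 0.0555). CDH4 was still called without glucose with the close pairs summed (adjusted p = 0.0339 from edgeR), and GJB2 (0.0532) and GJB5 (0.118) were not. N-cadherin (CDH2) was at most 0.221 CPM in any library.

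Genes known to repress or activate CDH1 were counted as well. Of 6 repressors 5 were tested with glucose, and TWIST1 (1.23, adjusted p = 0.000375 from edgeR) and SNAI2 (0.58, adjusted p = 0.00249) were higher and none was lower. Without glucose 3 of 4 tested were higher, SNAI2 (1.68, adjusted p = 0.000681 from edgeR), TWIST1 (1.48, adjusted p = 0.000128) and SNAI1 (1.33, adjusted p = 0.00801), and 1 was lower. SNAI2 (adjusted p = 0.0325 from edgeR) and TWIST1 (0.0185) were still called with the close pairs summed and SNAI1 (0.0942) was not. SNAI2 was 34.3 to 36.9 CPM in KMT2D-WT and 46.4 to 59.8 CPM in KMT2D-KO cells with glucose, and 40.5 to 46.4 against 75.8 to 169.8 CPM without. TWIST1 and SNAI2 were called higher with glucose in KO1 alone (1.26 and 0.49) and in KO2 alone (1.21 and 0.66). ZEB1 was called higher in KO1 alone (1.52, adjusted p = 0.00105 from edgeR) and not in KO2 alone (0.21, adjusted p = 0.697), and the lines differed (1.30, adjusted p = 0.0182). Of 10 epithelial activators 1 was lower and 2 were higher with glucose, and 2 were lower and 6 were higher without. KLF4, a differentiation factor, rose (1.78, adjusted p = 0.000167 from edgeR, and 3.61 without glucose, adjusted p = 4.3e-05), and GRHL1, a grainyhead factor of desmosomal genes, fell (-1.15, adjusted p = 0.00441, and -1.34 without glucose, adjusted p = 0.00218). ESRP1, an epithelial splicing factor, was higher with glucose (0.32, adjusted p = 0.0267), and GRHL3 (1.77) and ELF3 (1.58) were higher without (adjusted p = 0.000145 for each). Summing the close pairs, KLF4 (adjusted p = 0.0149 from edgeR), GRHL3 (0.0203) and ELF3 (0.0202) were still called without glucose, and GRHL1 (0.0519) was not.

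Of the 7 junction proteases and their inhibitors, 5 were tested. Of the 5 tested with glucose none was called by edgeR, with SPINT1 at an unadjusted p of 0.0211 and the other 4 above 0.05 (ADAM17 and SPINT2 were not called by DESeq2 either), and without glucose ADAM17, a sheddase, was lower (-0.47, adjusted p = 0.016 from edgeR) and the inhibitor SPINT2 higher (0.28, adjusted p = 0.049), neither of which was called with the close pairs summed (0.185 and 0.224). With glucose the lines differed in ADAM17 (1.14, adjusted p = 3.96e-07 from edgeR), which was higher in KO1 alone (0.34) and lower in KO2 alone (-0.80). In KO2 alone SPINT1 (-0.28) was also lower and ADAM10 (0.24) higher. Among the 7 identity markers KRT14 was lower with glucose (-1.74, adjusted p = 0.00627 from edgeR) and 4 were higher without, led by KRT5 (2.86, adjusted p = 0.0207), KRT18 (1.24, adjusted p = 3.1e-05) and KRT8 (0.76, adjusted p = 6.9e-05). With the close pairs summed KRT18 (adjusted p = 0.0152 from edgeR) and KRT8 (0.0197) were still called and KRT5 (0.155) was not. Between the lines with glucose, 4 of the 7 identity markers were lower in KO1 than in KO2 (7.4% of all genes), and none was higher. KRT5, KRT14 and KRT18 were among these. The part of line in the changes of ADAM17 and the keratins without glucose was not tested. Against KMT2D-WT with glucose, KO1 had 2 of the markers lower and none higher, and KO2 had 2 lower and 3 higher. The collagen genes COL1A1 (1.26, adjusted p = 0.000906 from edgeR) and COL1A2 (2.72, adjusted p = 0.00625) were called higher with glucose, at 11.5 to 16.0 and 0 to 5.34 CPM in KMT2D-KO cells, and their part in the other results was not tested.

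**Figure D4:**
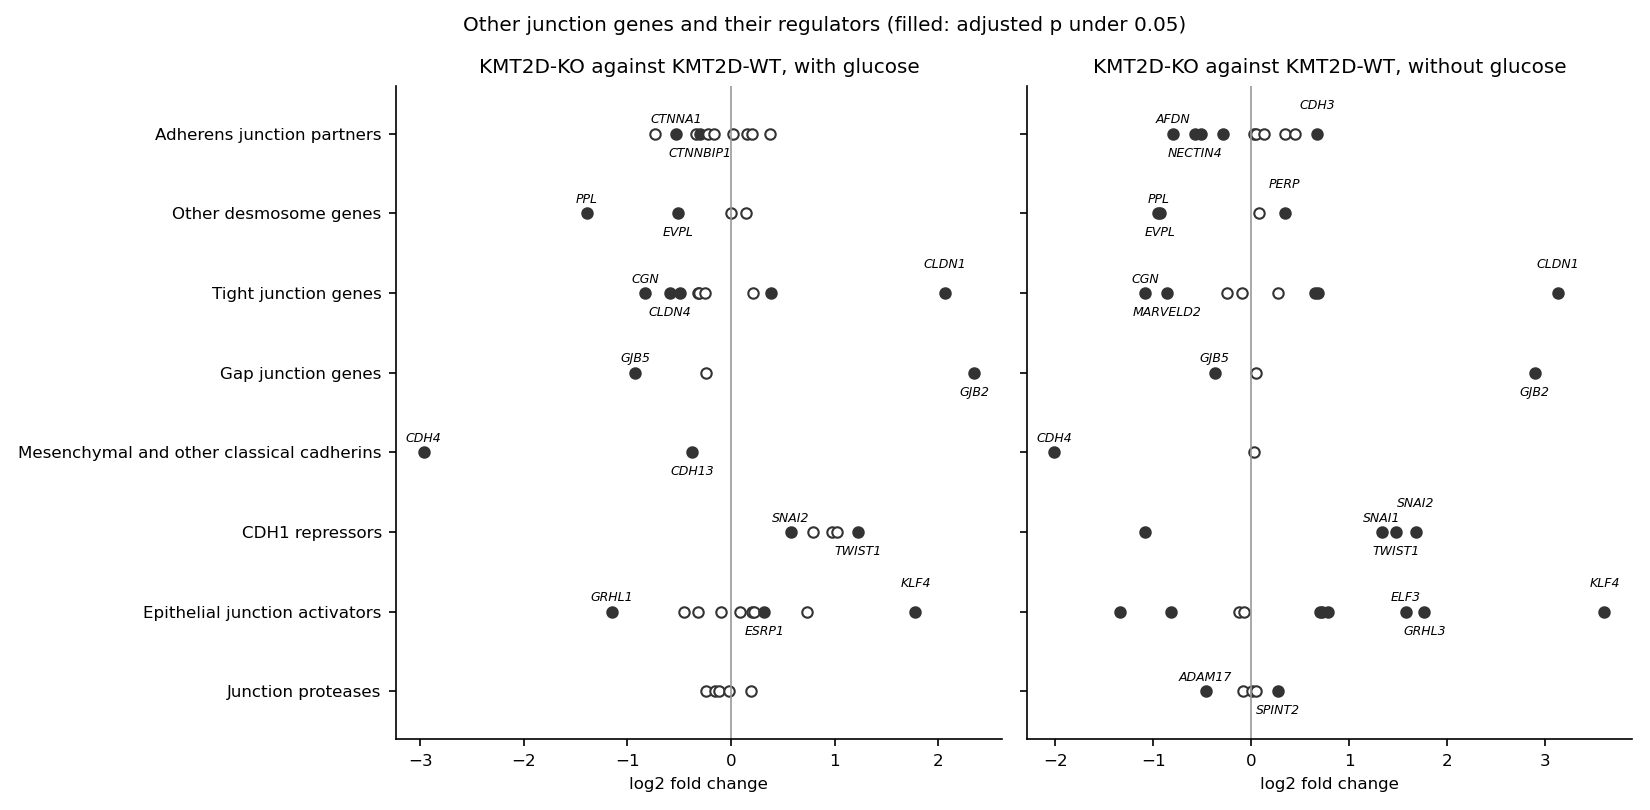
Log2 fold changes in KMT2D-KO against KMT2D-WT cells of the genes tested in 8 lists of junction genes and their regulators, with glucose (left) and without (right). Filled points passed an adjusted p under 0.05 in edgeR's quasi-likelihood test, up to 3 called genes per list are named, and DSG1 and GJA1, with KMT2D-WT libraries at or near 0, and a gene not reported here are left out. CLDN1 is at 2.06 and 3.13, CDH4 at -2.96 and -2.01, and KLF4 at 1.78 and 3.61.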

How the data were processed

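RNA-seq libraries of polyA RNA from SCC23 cells were mapped by the authors to GRCh38 with HISAT2 and counted per gene name with featureCounts 2.0.3 (Ensembl annotation, primary alignments, no strand), and the deposited values are raw counts. In the 4 libraries of experiment 2 with glucose both mates of a pair were counted. Levels are CPM scaled by TMM over all 14 libraries, divided by exonic length where genes are compared. Genes passing filterByExpr (minimum count 10) were tested with edgeR 4.0.16 (quasi-likelihood, TMM, limma 3.58.1, R 4.3.3), experiment as covariate, Benjamini-Hochberg threshold 0.05, two-sided. The study used DESeq2, which is an alternative here (1.42.0). The experiment numbers pair the libraries: deviations of KMT2D-WT and KMT2D-KO libraries from their group means correlated with r = 0.9 with glucose and 0.73 without. Simulated data in which 200 genes were changed were passed through the fits. The simulated libraries were independent and had no effect of experiment. They therefore cannot show how experiments or close pairs act on the calls.

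The members and gene lists were chosen with earlier results of these data known. Named are all members, up to 3 called genes of each list with the largest change per comparison, and the 5 genes most like CDH1, except some that are not reported here (mean CPM of at least 1, Pearson correlation of log2 CPM, prior count 2). Lists covered adherens junction partners, other desmosome genes, tight and gap junction genes, other classical cadherins, CDH1 repressors, epithelial activators, junction proteases, identity markers and other cell type markers. Alternatives changed the covariate, tool, scaling, filter, length offset, lines, experiments, mates and single libraries, and summed the close pairs. A fit with only the KMT2D-KO libraries of experiment 1 without glucose was added after seeing the data. Total counts limit low genes, and no counting intervals are given because replicate spread sets the errors.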

Additional observations from a re-analysis of the deposited data

Results flagged for a closer look

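Of 20 groups of 4 libraries tested with Dixon's criterion (10 members, 2 KMT2D-KO groups), 3 had 1 library far from the others, all without glucose. Chance gives about 1 in 20 for independent libraries of 1 kind. These groups mix 2 lines and 2 experiments, hold a close pair without glucose, and the members follow each other. That rate is therefore not the chance expectation here. In KMT2D-KO cells without glucose, the KO1 library of experiment 1 stood at 3.38 CPM for PKP1 against 1.23 to 1.55 in the other 3, and at 61.1 CPM for CDH1 against 205 to 226. This is the library with 19.9 CPM of KMT2D, and the only one of that group on the KO1 side of the line score (3.65, with the other 3 between -3.51 and -3.17). For PKP3 the KO2 library of experiment 1 was at 259 CPM against 211 to 215. The part of line and experiment in these values was not tested.

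The KMT2D-KO effect on JUP, plakoglobin, differed between the glucose conditions by 0.71 on the log2 scale (edgeR's quasi-likelihood test, adjusted p = 0.0084). The line label of the library labelled KO1 in experiment 2 without glucose is in doubt, and the part of line makeup over both lines was not tested. In a fit of the KMT2D-WT and KO2 libraries only, the difference was 0.646 (SE 0.103, adjusted p = 0.000437 from edgeR). The libraries labelled KO2 lay with KO2 in both conditions. That fit counts the close KMT2D-WT pair as separate libraries.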

How the results depend on the processing

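In this section a line alone means a separate fit of the libraries of that line with those of KMT2D-WT only. The number of all genes called also changes with the setting, so the member counts alone do not set the members apart. Counts over all genes are given below for some of the settings. The number of members called with glucose was 4, and 1 without the experiment covariate (no replicate block), 2 with DESeq2 without it, 8 with no filter, 7 for KO2 alone, 1 for experiment 2 alone, and 1 to 4 on leaving out single libraries. Without glucose it was 5, and 3 with no replicate block, 3 for the libraries labelled KO1 alone (1 of which lies with KO2), 9 for experiment 2 alone, 0 with the close pairs summed, 0 with only the KMT2D-KO libraries of experiment 1 (a setting chosen after seeing the data), and 3 to 8 on leaving out single libraries, the 8 without the KO1 library of experiment 1. For the difference between glucose conditions it was 1, and 0 with no replicate block, 0 with DESeq2 without experiment, 4 with no filter, 4 for KO2 alone, 0 with the close pairs summed, 0 with only the KMT2D-KO libraries of experiment 1, and 1 to 5 on leaving out libraries. For glucose deprivation it was 0, and 3 over all 14 libraries and 0 to 1 on leaving out libraries. Between KO1 and KO2 it was 6, and 0 with no replicate block, 1 with DESeq2 without experiment, 3 with library size scaling, 3 for experiment 2 alone, and 3 to 6 on leaving out libraries.

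Of 920 member values under these settings 37 changed sign, none of them called in either fit. With glucose DSG3 went to -0.25 for KO1 alone, and without glucose DSC2 went to 0.07 with a length offset and PKP2 and PKP3 to -0.24 and -0.16 with library size scaling. Of non-members, KO1 alone turned ADAM17 with glucose to 0.349 and KRT5 to -2.647, and KO2 alone turned KMT2D to 0.373.

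Of all genes, 5042 were called with glucose, and 971 with no replicate block, 2572 with DESeq2 without experiment, 2336 for experiment 2 alone and 2142 to 5048 on leaving out libraries. Without glucose 8521 were called, and 3659, 4821 and 12888 under the same settings, 2785 with the close pairs summed, 0 with only the KMT2D-KO libraries of experiment 1, and 6031 to 12448 on leaving out libraries. The difference between glucose conditions gave 2105, and 70 with no replicate block, 3473 with DESeq2 with and 594 without experiment, 4349 for KO2 alone, 258 with the close pairs summed, 58 with only the KMT2D-KO libraries of experiment 1, and 788 to 4230 on leaving out libraries. Glucose deprivation gave 177, and 3 with no replicate block, 633 with DESeq2, 329 with RLE scaling, 44 with library size scaling, 1158 with no filter, 527 with a length offset, 7757 over all 14 libraries, and 162 to 1336 on leaving out libraries. Between the lines it was 3215, and 11, 457 and 1819 under the settings named first, and 1094 to 3974. Library size scaling moved the split of lower and higher genes from 4179 and 4342 to 6295 and 2726 without glucose, from 1221 and 884 to 2402 and 264 for the difference, and from 1616 and 1599 to 1077 and 1996 between the lines.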
